A study of Canis lupus familiaris with 31 samples.

Results

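The genes described here encode 3 TAM receptors (TYRO3, AXL and MERTK) and 7 scavenger receptors or scavenger receptor-like proteins (MSR1, MARCO, SCARB1, SCARB2, CD163, CD68 and OLR1) in the whole blood of Miniature Schnauzers. They were taken by gene symbol from the table of read counts, where all 10 members had a row of their own among 32704 rows, and 9 of them passed the filter on low counts together with 13918 genes in all. AXL did not pass. RNA had been sequenced as 1 library per dog from 13 dogs with high serum triglycerides (HTG) and 18 controls. All were older, client-owned purebred dogs that had been fasted, nearly all were neutered, and they ate many different commercial diets. Cases had serum triglycerides above the limit the study set for HTG, without a known endocrine disease, and controls had triglycerides within the laboratory's reference range. There were 5 female and 8 male cases, and 8 female and 10 male controls.

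TAM receptors are receptor tyrosine kinases that phagocytes use to recognize dying cells. They do not bind the dying cell directly, since the ligands GAS6 and protein S (PROS1) form a bridge between the receptor and phosphatidylserine on the cell surface, and signaling through them also dampens inflammation. Scavenger receptors are a mixed family of surface proteins that take up modified lipoproteins, hemoglobin, bacteria and cell debris, and macrophages that take up lipoprotein through them turn into lipid-laden foam cells.

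Between 14524659 and 41533599 read pairs were counted on genes per dog. Levels below are in CPM, the read pairs of a gene scaled to a common library size, after TMM normalization, which limits the weight of a few highly counted genes. The table of counts gives no gene lengths, so that CPM values are compared between dogs and never between genes. Over 366 rows named after small RNAs, the dogs fell into a high side of 10 dogs, with 5 cases and 5 controls, and a low side of 21 dogs, with 8 cases and 13 controls. This split was found in the data, and the labels do not say what it is. Fold changes of the tested members within each side are therefore given beside the pooled ones. Marker genes of the blood cell types were present, and 11 of 12 monocyte markers were found and tested, with summed levels of 2543 to 5386 CPM in the cases and 1949 to 5583 CPM in the controls. Of the 12 markers of tissue macrophages 11 were found and 3 passed the filter, and C1QA, C1QB, C1QC, VSIG4, TIMD4, LYVE1, APOE and GPNMB did not, although none was at 0 in every dog. Control_03 stood apart with the lowest total count and the highest erythroid marker score.

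In the comparison of cases with controls, 0 of the 9 tested members passed the threshold of 0.05 for the adjusted P-value (edgeR's quasi-likelihood test with Benjamini-Hochberg adjustment over 13918 genes), and of all genes tested 0.0359% did. DESeq2 and limma-voom also called 0 members, where they called 0.321% and 0% of all genes. DESeq2 was run without the filter on low counts, so that its shares here are over 25579 genes and it tested all 10 members, AXL included. At an unadjusted P-value under 0.05, edgeR, DESeq2 and limma-voom each picked the same 2 members, MERTK and SCARB1, both higher in the cases. Of all genes, 9.81% had such a P-value in edgeR, with 5.04% higher and 4.76% lower in the cases, 6.76% in DESeq2 and 11.2% in limma-voom. No member had groups that did not overlap.

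MERTK, the TAM receptor best known from macrophages, had the largest log2 fold change among the members. Its level ranged from 0.264 to 2.76 CPM in the cases, with a median of 1.14 CPM, and from 0 to 1.62 CPM in the controls, with a median of 0.369 CPM. The 3 highest dogs were case_05, case_03 and case_04, at 2.76, 2.68 and 2.22 CPM, and these 3 cases lay above every control. In all, 11 of the 13 cases were above the control median. The other two cases, case_09 and case_10, were at 0.264 and 0.283 CPM and lay among the lower controls. The controls themselves were uneven. Control_18, control_12, control_10 and control_09 lay between 1.28 and 1.62 CPM, and the remaining 14 controls were at 0.612 CPM or below. MERTK averaged 1.28 ± 0.82 CPM in cases (SD, n = 13) and 0.544 ± 0.489 CPM in controls (SD, n = 18). The log2 fold change for cases over controls was 1.22 (SE 0.39, 95% interval 0.46 to 1.98), and its P-value of 0.0037 was 0.26 after adjustment over all genes in edgeR. MERTK is listed in the study's pathway analysis of the genes it called from these libraries, so that its direction here is not independent evidence. The study called those genes with DESeq2 and a batch covariate, which could not be used here. In DESeq2 without that covariate, MERTK had a log2 fold change of 1.23 and an adjusted P-value of 0.128. With the small RNA split as a covariate in edgeR, MERTK had 1.36 and an adjusted P-value of 0.176. Whether the batch covariate accounts for the different call was not tested.

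The counts behind MERTK were few, 4 to 68 read pairs in the cases and 0 to 37 in the controls. Only control_03 had a count of 0, and 3 counts in that library, the limit that a count of 0 allows, correspond to 0.392 CPM. This limit covers counting error only. On both sides of the small RNA split the cases were higher. On the high side the cases averaged 1.21 ± 0.96 CPM (SD, n = 5) and the controls 0.238 ± 0.160 CPM (SD, n = 5), a difference in mean log2 CPM of 1.88 (two-sided exact permutation test, P = 0.0317). There, all 5 controls were at 0.399 CPM or below and case_09 was the lone case among them. Without control_03 the difference on the high side was 1.46 (exact permutation test, P = 0.0476). On the low side the cases averaged 1.33 ± 0.78 CPM (SD, n = 8) and the controls 0.662 ± 0.526 CPM (SD, n = 13), with a difference of 1.04 (exact permutation test, P = 0.0336). These P-values were not adjusted, and in edgeR MERTK had too few counts to be tested on the high side alone.

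AXL, the second TAM receptor, was close to the limit of detection. Its counts ran from 0 to 20 in the cases and from 0 to 38 in the controls, and it was at 0 in case_07 and in control_03, control_05, control_09 and control_12. The highest dog by far was control_16, at 1.94 CPM. Every other dog was at 0.759 CPM or below, the level of case_11. AXL had medians of 0.298 CPM in the cases and 0.223 CPM in the controls. With no filter on low counts its log2 fold change was 0.22 (SE 0.55), and a difference was not detectable at this depth (edgeR, unadjusted P = 0.698, adjusted P = 0.905).

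TYRO3, the third TAM receptor, had 0.060 to 2.54 CPM in the cases with a median of 0.956 CPM, and 0 to 2.05 CPM in the controls with a median of 0.907 CPM. The groups overlapped almost entirely, although the 3 lowest dogs were control_03, case_01 and case_08. Its log2 fold change was 0.14 (SE 0.34, 95% interval −0.53 to 0.81), with an adjusted P-value of 0.931 in edgeR. The sign of this fold change was not stable, since it was −0.06 in limma-voom and −0.03 without case_04. Within the high and the low side it was 0.64 (SE 0.60) and −0.15 (SE 0.41), and the difference between the sides was 0.81 (SE 0.74, unadjusted P = 0.286, adjusted P = 0.97 in edgeR).

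**Figure D1:**
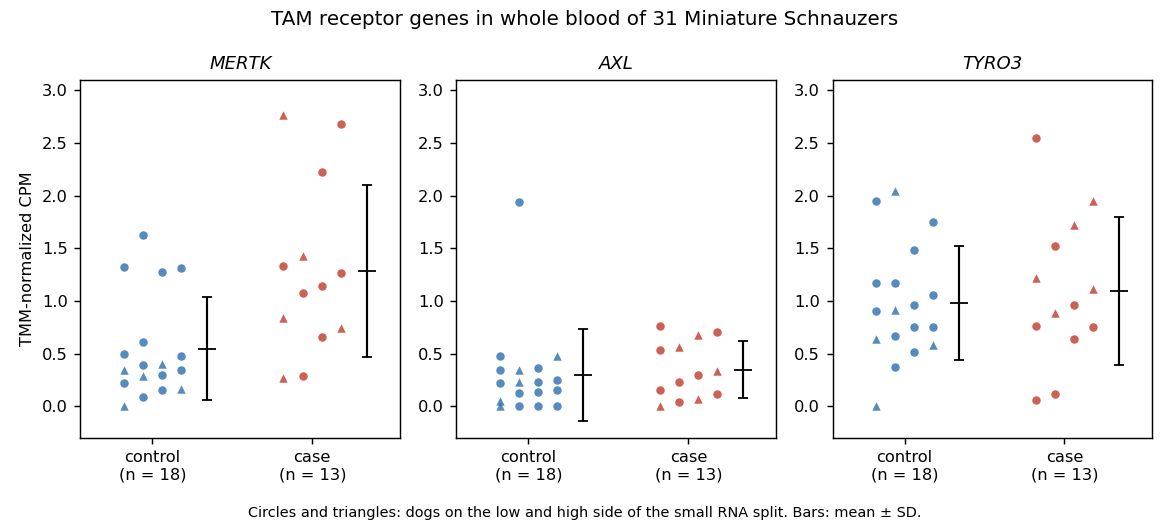
Level of MERTK, AXL and TYRO3 in TMM-normalized CPM (vertical axis) in each of 18 controls (blue) and 13 cases (red). Circles are dogs on the low side and triangles dogs on the high side of the small RNA split, and bars give the mean ± SD. For MERTK, 3 cases lie above the highest control at 1.62 CPM, for AXL control_16 stands alone at 1.94 CPM, and for TYRO3 the groups overlap.

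Around the TAM receptors stood their ligands and the proteases that shed them from the cell surface. Of the 9 genes on this list all were found and 7 were tested, 0 passed the adjusted threshold in edgeR and 0 had an unadjusted P-value under 0.05, and their median log2 fold change was −0.01, beside −0.02 over all genes tested. The list also held BMPR1A, a receptor for bone morphogenetic proteins, and F10, a coagulation factor, which are neither, and without them 6 of 7 genes were tested, with a median of 0.036. PROS1, which encodes protein S, a TAM ligand that also serves as an anticoagulant, averaged 11.7 ± 4.70 CPM in the cases and 9.38 ± 3.77 CPM in the controls, with a log2 fold change of 0.32 (SE 0.20, adjusted P = 0.62). GAS6, the ligand all 3 receptors share, averaged 0.808 ± 0.470 CPM in cases and 0.698 ± 0.295 CPM in controls, with a log2 fold change of 0.19 (SE 0.27, adjusted P = 0.863). The sheddase ADAM17 had a log2 fold change of −0.07 (SE 0.08). BMPR1A, which the naming rule also picked, had −0.24 (SE 0.28).

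Among the class A scavenger receptors, MSR1, which takes up modified low-density lipoprotein, ranged from 0.153 to 2.04 CPM in the cases (median 0.776) and from 0.168 to 1.89 CPM in the controls (median 0.526). Cases held both its highest dog, case_11, and its lowest, case_13. The log2 fold change was 0.33 (SE 0.36, 95% interval −0.38 to 1.03, adjusted P = 0.813 in edgeR). On the low side it was 0.39 (SE 0.43), and on the high side, where MSR1 did not pass the filter, mean log2 CPM differed by 0.22 (two-sided exact permutation test, P = 0.675). MARCO, a receptor for bacteria and particles, ranged from 2.85 to 18.0 CPM in the cases (median 6.63) and from 1.44 to 15.2 CPM in the controls (median 5.78). Its highest dogs were case_01 and control_18, and 8 of 13 cases lay above the control median. Its log2 fold change of 0.39 (SE 0.29, 95% interval −0.17 to 0.95) had an adjusted P-value of 0.69 in edgeR, and it was 0.35 (SE 0.39) within the high and 0.47 (SE 0.36) within the low side.

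SCARB1, the class B receptor that takes cholesterol esters from high-density lipoprotein, varied little between dogs. It ranged from 30.0 to 63.1 CPM in the cases, with a median of 44.1 CPM, and from 25.6 to 53.5 CPM in the controls, with a median of 36.6 CPM. Case_01 was the only case above the highest control, control_13, and 11 of the 13 cases lay above the control median. The mean was 43.3 ± 7.87 CPM in cases (SD, n = 13) and 37.02 ± 5.87 CPM in controls (SD, n = 18). Cases over controls, this was a log2 fold change of 0.23 (SE 0.09, 95% interval 0.06 to 0.39), with an unadjusted P-value of 0.0126 and an adjusted one of 0.343 in edgeR.

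The SCARB1 difference was seen on the low side of the small RNA split. There the 8 cases averaged 45.02 ± 8.30 CPM (SD) and the 13 controls 35.4 ± 4.01 CPM (SD), a difference in mean log2 CPM of 0.34 (two-sided exact permutation test, P = 0.000418, not adjusted). In edgeR on these 21 dogs the log2 fold change of SCARB1 was 0.35 (SE 0.09, adjusted P = 0.187). On the high side the 5 cases averaged 40.5 ± 7.01 CPM and the 5 controls 41.3 ± 8.17 CPM, with a difference in mean log2 CPM of −0.02 (exact permutation test, P = 0.897). Whether the case-control difference itself differed between the sides was tested after the data were seen. For SCARB1 the difference between the high and the low side was −0.37 (SE 0.18, unadjusted P = 0.041, adjusted P = 0.97 in edgeR), and 4.35% of all genes had an unadjusted P-value under 0.05 in that test, with 0 genes past the adjusted threshold.

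SCARB2, a lysosomal membrane protein of the same class, did not separate the groups. It ranged from 139.6 to 260.4 CPM in cases, with a median of 184 CPM, and from 115.7 to 313 CPM in controls, with a median of 196 CPM. The controls held both the highest and the lowest dog. Its log2 fold change was −0.06 (SE 0.13, 95% interval −0.31 to 0.19, adjusted P = 0.922 in edgeR), with −0.20 (SE 0.23) within the high and 0.0011 (SE 0.15) within the low side.

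CD163, the hemoglobin scavenger of monocytes and macrophages, was the most variable of the members for its abundance. It ranged from 0.906 to 34.8 CPM in the cases, with a median of 12.5 CPM, and from 0.523 to 28.7 CPM in the controls, with a median of 11.0 CPM. Between the lowest dog, control_03, and the highest, case_03, the level differed 66.4-fold. Very low dogs were found in both groups, with case_05 at 0.906 CPM and control_07 at 0.742 CPM. Its biological coefficient of variation in edgeR, the spread between dogs of a group beyond counting error, was 0.83, where genes of the same abundance had 0.30, and 97.5% of the genes tested had a lower one. By the same measure MERTK had 0.70 against 0.53, MARCO 0.54 against 0.34, and SCARB1 0.17 against 0.25. Group means of CD163 were close, at 12.3 ± 9.17 CPM (SD, n = 13) and 12.5 ± 9.21 CPM (SD, n = 18). CD163 had a log2 fold change of −0.03 (SE 0.44, 95% interval −0.90 to 0.84, adjusted P = 0.991 in edgeR), an interval wide enough to hold a difference in either direction. By side of the split, high and low, CD163 had log2 fold changes of −1.26 (SE 0.80) and 0.44 (SE 0.47), and the 2 sides differed by −1.70 (SE 0.92, unadjusted P = 0.0764, adjusted P = 0.97 in edgeR). In mean log2 CPM the difference on the high side was −0.95 (two-sided exact permutation test, P = 0.444), and −1.89 without control_03 (exact permutation test, P = 0.0794).

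CD68, a sialomucin of the endosomes and lysosomes of phagocytes, ranged from 97.6 to 222 CPM in the cases (median 127) and from 71.9 to 240.4 CPM in the controls (median 118). Its highest dog was control_03. The log2 fold change was 0.15 (SE 0.14, 95% interval −0.13 to 0.44, adjusted P = 0.774 in edgeR), with 0.05 (SE 0.25) within the high and 0.15 (SE 0.14) within the low side. OLR1, the receptor for oxidized low-density lipoprotein also called LOX-1, ranged from 0.276 to 2.80 CPM in the cases (median 1.24) and from 0.319 to 4.32 CPM in the controls (median 1.42). Here too control_03 was the highest dog, and 6 of 13 cases lay above the control median. The top rank of control_03 for CD68 and OLR1 depends on its TMM scaling. In that library 3 counts were 0.392 CPM, with a total of 14524659 read pairs. In case_09 they were 0.198 CPM, with a total of 16363134. OLR1 had a log2 fold change of 0.14 (SE 0.33, 95% interval −0.51 to 0.80, adjusted P = 0.926 in edgeR), with −0.22 (SE 0.58) within the high and 0.30 (SE 0.40) within the low side.

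**Figure D2:**
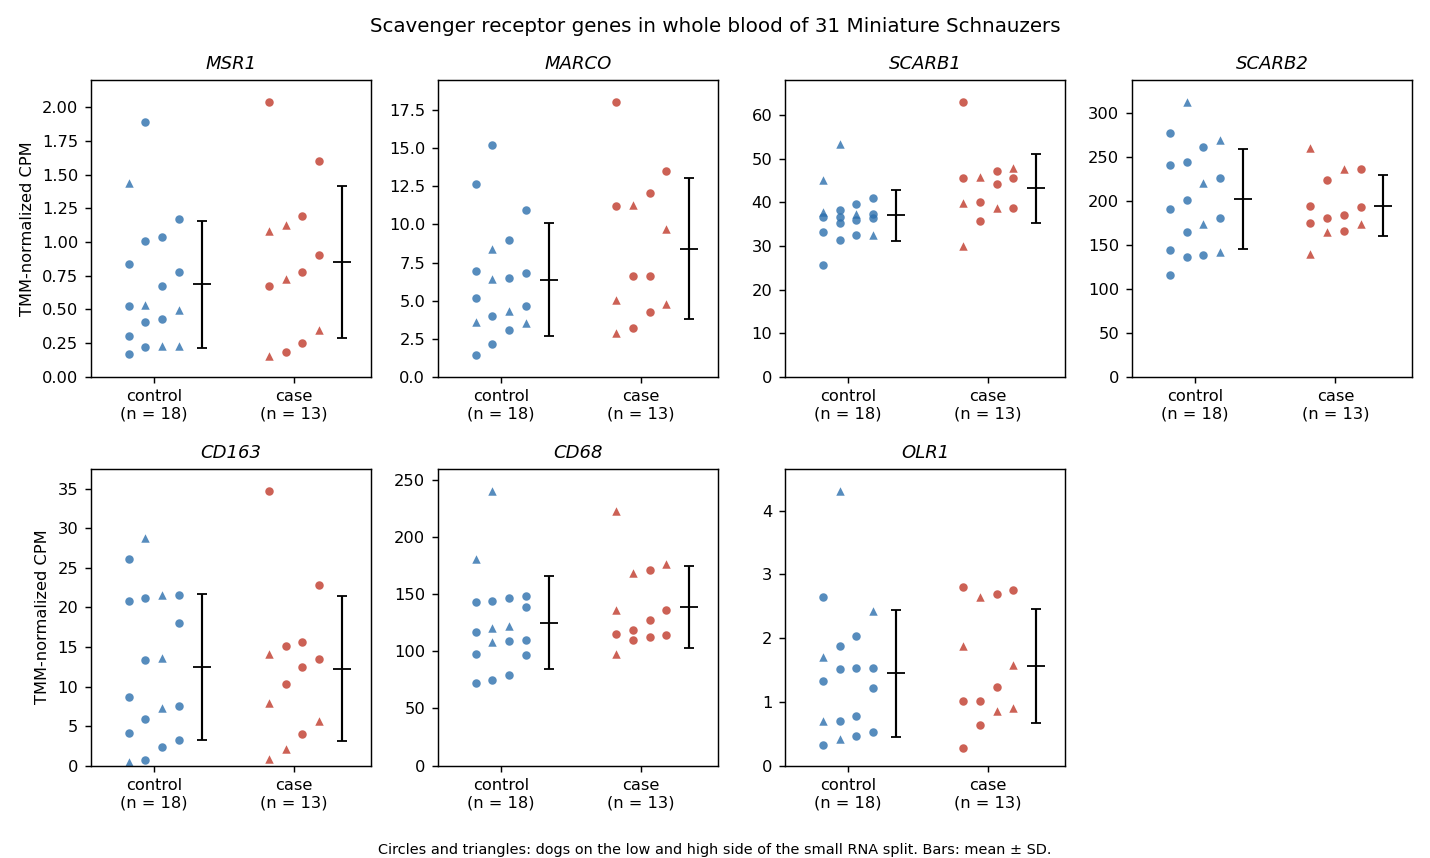
Level of the 7 scavenger receptor genes in TMM-normalized CPM (vertical axes, each starting at 0) in 18 controls (blue) and 13 cases (red). Circles are dogs on the low side and triangles dogs on the high side of the small RNA split, and bars give the mean ± SD. The groups overlap for every gene, SCARB1 is narrowly spread around means of 43.3 and 37.02 CPM, and CD163 spans 0.523 to 34.8 CPM.

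**Figure D3:**
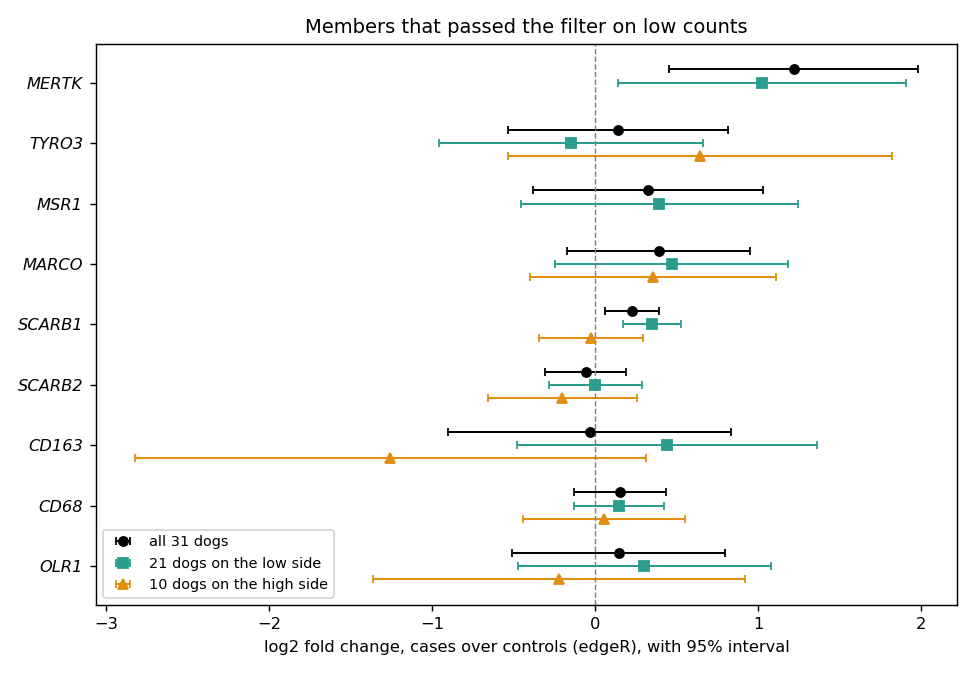
Log2 fold change of cases over controls from edgeR (horizontal axis) with 95% intervals for the 9 members tested, over all 31 dogs (black circles) and within the 21 dogs on the low side (green squares) and the 10 dogs on the high side (orange triangles). MERTK and MSR1 have no triangle because they did not pass the filter on the high side. The intervals of MERTK, from 0.46 to 1.98, and SCARB1, from 0.06 to 0.39, lie above 0 over all dogs, and those of the other 7 members hold 0.

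Other genes that share the work of these receptors gave 0 calls past the adjusted threshold in edgeR in each of 4 further lists, beside 0.0359% of all genes. Counts at an unadjusted P-value under 0.05 in these lists stand beside 9.81% of all genes, 5.04% in the higher and 4.76% in the lower direction. Of 21 other scavenger receptors 17 were found and 13 tested, and 0 had an unadjusted P-value under 0.05 in the higher and 2 in the lower direction. These 2 were AGER, the receptor for glycated proteins, with a log2 fold change of −0.32 (SE 0.14, adjusted P = 0.452), and the mannose receptor MRC1, also on the list of tissue macrophage markers, with −0.60 (SE 0.29, adjusted P = 0.51). LAMP1, a lysosomal membrane glycoprotein, was the next by P-value, with 0.14 (SE 0.07).

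Of 20 other receptors and bridging proteins for dying cells 17 were found and 10 tested, and 3 had an unadjusted P-value under 0.05, all in the higher direction. THBS1, encoding the matrix protein thrombospondin 1, which platelets release, averaged 1333 ± 511 CPM in the cases and 779.9 ± 244 CPM in the controls. Its log2 fold change was 0.77 (SE 0.18), with 11 of 13 cases above the control median and an adjusted P-value of 0.0741 in edgeR. Like MERTK, THBS1 was among genes that the study had called from these libraries, and its direction is not independent evidence. ITGAV and ITGB5, the chains of the vitronectin receptor αvβ5, of which ITGB5 is also on the list of platelet markers, had log2 fold changes of 0.28 (SE 0.09, adjusted P = 0.278) and 0.55 (SE 0.19, adjusted P = 0.311).

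All 20 genes of the engulfment machinery, which moves the membrane around a bound particle, were found and 19 were tested. RAC1, the small GTPase that drives this movement, had a log2 fold change of 0.22 (SE 0.08, adjusted P = 0.301), with 12 of 13 cases above the control median. PTK2 had 0.29 (SE 0.11) and CRK had −0.16 (SE 0.07), and these 3 were the genes of the list with an unadjusted P-value under 0.05. Of 10 nuclear receptors and regulators that control such receptors in macrophages, 8 were tested and 0 had an unadjusted P-value under 0.05. NR1H3, the liver X receptor α, had a log2 fold change of 0.25 (SE 0.15) and IL10RA had −0.12 (SE 0.10). The median log2 fold changes were 0.06 for the other scavenger receptors, 0.09 for the dying cell receptors, 0.02 for the engulfment machinery and −0.02 for the nuclear receptors, beside −0.02 over all genes tested.

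Whole blood is a mixture, and in a bulk sample fewer cells of a type and less RNA per cell cannot be told apart. Marker scores, the mean log2 CPM of a list after centering each gene over the dogs, therefore stand beside the members. Of 9 scores, those of platelets, neutrophils and endothelium were higher in the cases, by 0.61 (two-sided permutation test, adjusted P = 0.0157), 0.64 (adjusted P = 0.0269) and 0.36 (adjusted P = 0.00324). The summed level of the 11 platelet markers found, of 12, was 1504 to 5735 CPM in the cases and 1029 to 5693 CPM in the controls, that of 10 neutrophil markers 6224 to 11044 and 4198 to 18521 CPM, and that of 11 endothelial markers 79.8 to 182 and 51.8 to 144 CPM. None of these markers was at 0 in every dog, and CDH5, EMCN, PLVAP and ROBO4, which mark endothelium, did not pass the filter. Of the 7 endothelial markers that passed, 6 had a log2 fold change above 0 for cases over controls. KDR, at 0.50 (SE 0.13), was among genes the study had called from these libraries, so that the endothelial score is not fully independent evidence. TEK went the other way, at −0.19 (SE 0.16). The score of monocytes was 0.19 higher in the cases (permutation test, unadjusted P = 0.0429, adjusted P = 0.0965). Differences in the scores of erythroid cells (0.72, permutation test, adjusted P = 0.13), B cells (0.20, 0.213), eosinophils and basophils (0.25, 0.157), tissue macrophages (0.08, 0.72) and T and NK cells (0.04, 0.831) did not pass.

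With a score as a covariate in edgeR, the log2 fold change of MERTK was 1.85 (SE 0.47, adjusted P = 0.59) for the platelet score, 1.04 (SE 0.41, adjusted P = 0.426) for the monocyte score and 1.04 (SE 0.42, adjusted P = 0.315) for the neutrophil score. That of SCARB1 was 0.16 (SE 0.10), 0.15 (SE 0.09) and 0.18 (SE 0.10) with the same covariates, and its 95% intervals then held 0. With the eosinophil and basophil score as the covariate MERTK had 1.37 (SE 0.43, adjusted P = 0.263) and SCARB1 0.22 (SE 0.09, 95% interval 0.04 to 0.40, adjusted P = 0.475). The part of the endothelial markers in these results was not tested.

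How each member moved with the scores from dog to dog was described after the means of group and side were taken out, so that a difference between cases and controls could not enter. Of 81 relations between 9 members and 9 scores, 5 passed an adjusted P-value of 0.05 by both Pearson's r and Spearman's rho, adjusted over all genes tested against that score, and 2 passed by r alone. Those 2 were with the neutrophil score, where 13.7% of all genes passed by rho. TYRO3 had r = −0.46 (two-sided permutation test, P = 0.00904, adjusted P = 0.043) and rho = −0.50 (adjusted P = 0.0509) with it, with r = −0.54 without the 2 farthest dogs and rho of −0.31 and −0.38 within the high and the low side. SCARB2 had r = 0.52 (two-sided permutation test, P = 0.00437, adjusted P = 0.0267) and rho = 0.49 (adjusted P = 0.0545), with r = 0.49 without the 2 farthest dogs and rho of 0.079 and 0.68 within the sides. MARCO rose with the monocyte score over the 31 dogs, with r = 0.61 (two-sided permutation test, P = 0.00016, adjusted P = 0.0237) and rho = 0.71 (permutation test, P = 2e-05, adjusted P = 0.00556). Within the high and the low side rho was 0.70 and 0.72, and r was 0.68 without the 2 dogs farthest from the median score. Of all genes, 1.16% passed with this score by rho. With the tissue macrophage score, which rests on 3 tested markers, MARCO had r = 0.73 (permutation test, P = 5e-05, adjusted P = 0.174) and rho = 0.76 (permutation test, P = 3e-05, adjusted P = 0.0835), which did not pass, and 0% of all genes passed with that score by rho. Within the high and the low side this rho was 0.83 and 0.78, and r was 0.68 without the 2 farthest dogs. CD5L, 1 of these 3 markers, is also among the 5 genes most like MARCO given below, so that the 2 observations overlap.

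CD68 rose with the platelet score, with r = 0.59 (permutation test, P = 0.0009, adjusted P = 0.0413) and rho = 0.65 (permutation test, P = 0.00026, adjusted P = 0.0208), against 1.77% of all genes that passed by rho. Within the high and the low side rho was 0.84 and 0.52, and r was 0.71 without the 2 farthest dogs. MERTK went the other way with platelets, with r = −0.39 (permutation test, P = 0.0418, adjusted P = 0.301) and rho = −0.40 (permutation test, P = 0.0359, adjusted P = 0.377), which did not pass, and r was −0.37 without the 2 farthest dogs. With monocytes MERTK had r = 0.21 (permutation test, P = 0.272) and rho = 0.22 (permutation test, P = 0.247), and r was 0.31 without the 2 farthest dogs.

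TYRO3 fell with the erythroid score, with r = −0.82 (permutation test, P = 2e-05, adjusted P = 0.000384) and rho = −0.69 (permutation test, P = 0.00013, adjusted P = 0.00185). Many genes moved with that score, since 27.9% of all genes passed by rho. Without the 2 farthest dogs r was −0.69, and rho was −0.55 and −0.57 within the sides. SCARB2 fell with the T and NK cell score (r = −0.58, permutation P = 0.00212, adjusted P = 0.0186, rho = −0.54, permutation P = 0.00549, adjusted P = 0.0426), where 14.7% of all genes passed by rho. Its r was −0.49 without the 2 farthest dogs, and its rho within the high and the low side was −0.24 and −0.67. SCARB2 also rose with the erythroid score (r = 0.45, permutation P = 0.0145, adjusted P = 0.0481, rho = 0.47, permutation P = 0.00903, adjusted P = 0.0366, r = 0.49 without the 2 farthest dogs), with rho of 0.16 and 0.55 within the sides.

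**Figure D4:**
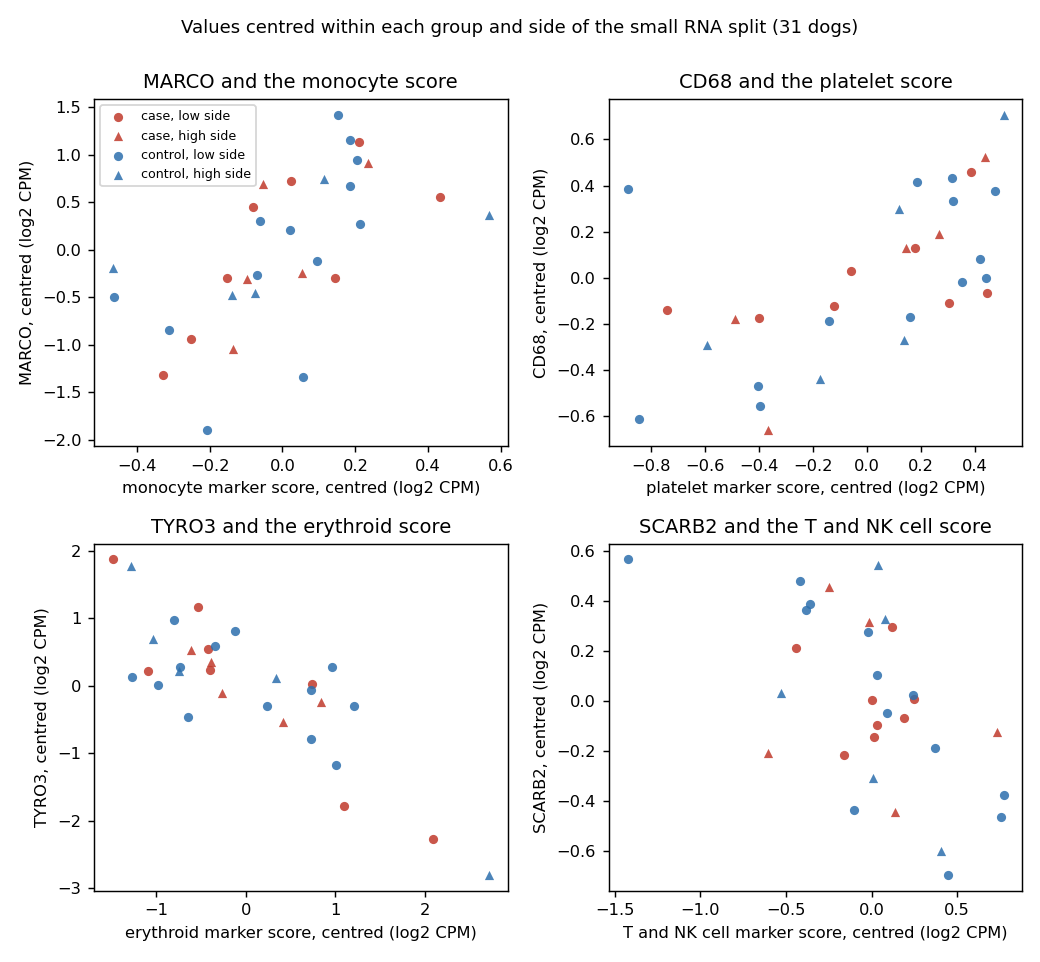
Log2 CPM of MARCO, CD68, TYRO3 and SCARB2 (vertical axes) against the marker score named in each panel (horizontal axes, log2 CPM), both centered within group and side, for 18 controls (blue) and 13 cases (red) on the low (circles) and high (triangles) side of the small RNA split. MARCO and CD68 rise with the monocyte and the platelet score (rho = 0.71 and 0.65), and TYRO3 and SCARB2 fall with the erythroid and the T and NK cell score (rho = −0.69 and −0.54).

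Members were also set against each other in the same way. Among 36 pairs, only TYRO3 and SCARB2 passed after adjustment over all genes, with r = −0.45 (permutation test, P = 0.00489, adjusted P = 0.0244) and rho = −0.54 (permutation test, P = 0.0019, adjusted P = 0.0179) when all genes were set against TYRO3. Of all genes, 21.2% passed against TYRO3 and 17.8% against SCARB2 by rho, so that a pass is common for these 2 genes. The share was 0.424% against CD68, 0.0216% against MSR1 and 0% against each of the other 5 members. Within the high and the low side rho was −0.58 and −0.66, and r was −0.51 without the 2 farthest dogs. Both genes are also those that moved, in opposite directions, with the erythroid score. The next pairs, which did not pass, were CD68 with SCARB2 (r = 0.47, rho = 0.47, permutation P = 0.0214 and 0.0191, adjusted P = 0.0905 and 0.0816) and MERTK with CD68 (r = −0.48, rho = −0.43, permutation P = 0.0126 and 0.0263, adjusted P = 0.394 and 0.328), with r of 0.37 and −0.38 without the 2 farthest dogs.

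The genes most like each member were read from Spearman's rho over the 31 dogs after removal of the group means, as a description with no test. The dogs share library depth and the split, which were not removed here. SCARB2 had the closest company, with PPM1M (rho = 0.92), CTSF, which encodes the lysosomal protease cathepsin F (0.89), ATP6V0D1, a subunit of the lysosomal proton pump (0.85), MPP1 (0.85) and TAPT1 (0.82). CD68 was followed by ORAI2 (0.83), NRGN (0.81), RBPMS2 (0.80) and the cytoskeletal genes ZYX (0.79) and ACTN1 (0.78). MARCO was followed by IL1R1, the interleukin-1 receptor (0.73), MPEG1, a pore-forming protein of macrophages (0.72), TCF7L2 (0.70), MITF (0.69) and CD5L, a secreted protein of tissue macrophages (0.68). For SCARB1 these were QARS (0.78), GLO1 (0.64), FBXL12 (0.64), DNASE2 (0.62) and CSNK1E (0.60).

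For MERTK they were DNAJC8 (0.71), SMIM20 (0.70), FEM1B (0.69), GOLIM4 (0.68) and APBB1IP (0.67), and for TYRO3 ZNF202 (0.76), TCHP (0.74), RAPGEF5 (0.74), DTWD1 (0.73) and FLT3LG, the ligand of a receptor on blood progenitors (0.73). MSR1 was closest to C6H1orf52 (0.78), SMC5 (0.74), SBNO1 (0.73), SULT1C4 (0.71) and RO60 (0.70), CD163 to CASTOR1 (0.76), DPH1 (0.70), TRIM69 (0.67), MPRIP (0.64) and RBMS2 (0.63), and OLR1 to CLCN1 (0.68), FAM117B (0.66), FANCM (0.63), CSRP2 (0.63) and IMPG2 (0.62). No member was among the 5 genes most like another member.

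Serum triglycerides were set against the 10 members within the cases and within the controls, 20 relations in all. Of the 18 with a tested member, 0 passed an adjusted P-value of 0.05 over all genes, and the other two, those of AXL, were not adjusted. In the controls 12.7% of all genes had an unadjusted P-value under 0.05 by rho, and in the cases 2.66%, with 0 genes past adjustment in either group. CD68 came closest, in the 18 controls, with r = 0.58 (two-sided permutation test, P = 0.012, adjusted P = 0.525) and rho = 0.57 (permutation test, P = 0.0157, adjusted P = 0.367), and r was 0.52 without the 2 farthest dogs. Within the 13 controls of the low side r was 0.52, and none is given for the high side, which held only 5 controls. In the 13 cases CD68 had r = −0.09 (permutation test, P = 0.774) and rho = 0.18 (permutation test, P = 0.566). MERTK had r = 0.36 (permutation test, P = 0.232) and rho = 0.29 (permutation test, P = 0.336) in the cases, with r = 0.58 without the 2 farthest dogs, and r = −0.38 (permutation test, P = 0.12) and rho = −0.35 (permutation test, P = 0.158) in the controls, with r = −0.24 without them. OLR1 had r = −0.54 (permutation test, P = 0.0589) and rho = −0.55 (permutation test, P = 0.056) in the cases, and r was −0.62 without the 2 farthest dogs.

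Between the sexes, with the group held in the model, 0 members passed the adjusted threshold in edgeR, DESeq2 or limma-voom. The tested members were 9 in edgeR and limma-voom and 10 in DESeq2. Of all genes, 0.122% passed in edgeR, 0.0979% in DESeq2 and 0.129% in limma-voom. The member with an unadjusted P-value under 0.05 in each of the 3 tools was MSR1, against 4.89% of all genes in edgeR, 3.66% in DESeq2 and 5.77% in limma-voom. MSR1 averaged 0.538 ± 0.391 CPM in the 13 females and 0.912 ± 0.539 CPM in the 18 males, with a log2 fold change for females over males of −0.73 (SE 0.36, unadjusted P = 0.0477, adjusted P = 0.959 in edgeR). The case-control difference was not detectably different between the sexes for any tested member. Each of the 3 tools called 0 members, and 0% of all genes. At an unadjusted P-value under 0.05, edgeR picked 0 of 9 members, where 3.93% of all genes had such a P-value. TYRO3 had the smallest P-value. Its log2 fold change for cases over controls differed between females and males by −0.99 (SE 0.70, unadjusted P = 0.169 in edgeR), with means of 0.694 and 1.00 CPM in female cases and controls and of 1.34 and 0.963 CPM in male cases and controls. For MERTK the cases were the higher group in both sexes, at 1.05 against 0.589 CPM in females and 1.43 against 0.508 CPM in males.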

How the data were processed

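Whole-blood RNA was sequenced from 13 cases and 18 controls. Per the labels, libraries were made with a stranded total RNA kit that removes ribosomal RNA, although the labels also give the molecule as polyA RNA, and they and the methods name different extraction kits. Trimming used Trimmomatic and alignment HISAT2, per the submitters' processing notes. Pairs were counted on a gene only when both mates mapped, and the authors deposited these raw counts without normalization. The counting program and its strand setting are not given in the sources used here, so that antisense or overlapping reads may be included. The methods name canFam6, and the rows carry Ensembl dog identifiers with symbols. No column belonged to another sample (0 columns).

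Counts were normalized with TMM, filtered with filterByExpr and compared with the quasi-likelihood test of edgeR 4.0.16 in R 4.3.3, with no covariate and P-values adjusted by the Benjamini-Hochberg procedure over 13918 genes. Permutation tests (100000 resamples, or exact within the sides) used log2 CPM with a prior count of 2. Where P-values of correlations are adjusted, this was done over all genes tested, for triglycerides in place of the planned adjustment over the members. Triglycerides, age and body condition score came from the study's description of the dogs. The study's batch covariate could not be used, since the labels do not name the dogs of its pilot, and the small RNA split took its place as an alternative. The pilot held 10 libraries, of 5 cases and 5 controls, as does the high side, and whether they are the same dogs was not tested. The members and lists were chosen with earlier results of these data known. Named were all members, the 3 genes with the smallest P-value of each pathway list with GAS6 and PROS1, and the 5 genes most like each member. A gene that this rule names is not reported here. Case and control numbers did not pair the dogs. Libraries are separate dogs.

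Alternatives were RLE and upper quartile normalization, no filter, at least 10 counts in every dog, DESeq2 1.42.0, limma-voom 3.58.1, covariates, a block on the dog number, each side alone and each dog left out. The interaction with the side, the relations with marker scores, the high side without control_03, the ligand list without BMPR1A and F10 and the unblocked fit of the dogs numbered 1 to 13 were chosen after seeing the data.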

Additional observations from a re-analysis of the deposited data

How the results depend on the processing

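The count of members called in cases against controls was 0 under every alternative run, as were those for sex, for sex by group and for triglycerides, and 3 marker scores differed under each alternative. With at least 10 counts in every dog 4 members were tested, and within the high side 7. MERTK and MSR1 were in neither fit and could not be called there. The number of genes called was 5, and it was 1 with at least 10 counts in every dog, 82 with DESeq2, 3 with body condition score as a covariate, 28 without case_01 and control_03, and 0 with limma-voom, with the platelet, monocyte or neutrophil score as a covariate and within either side. Leaving out 1 dog gave 1 (without case_01) to 154 genes (without control_03). The cause was not tested.

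The case and control numbers gave 13 pairs, whose deviations correlated between −0.44 and 0.26, with 3 pairs over 0.1 and 1 case closest to its own number. With the pairing as a block 0 genes were called, as without it in these dogs, and MERTK had a log2 fold change of 1.57, against 1.36 without it.

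Leaving out 1 dog kept MERTK between 1.07 and 1.40 and SCARB1 between 0.17 and 0.27. CD163 ranged from −0.27 (without case_03) to 0.074 (control_13), TYRO3 from −0.031 (case_04) to 0.24 (case_01), MSR1 from 0.14 (case_11) to 0.49 (control_09), MARCO from 0.25 (case_01) to 0.52 (control_18), SCARB2 from −0.10 (case_09) to −0.0090 (control_13), CD68 from 0.077 (case_09) to 0.23 (control_03) and OLR1 from 0.047 (case_12) to 0.29 (control_03). Signs also turned for CD163 with age (0.065), the platelet score (0.065) or the neutrophil score (0.67) as a covariate, with the block (0.12) and on the low side (0.44), for TYRO3 in limma-voom (−0.059) and on the low side (−0.15), for MSR1 with the monocyte (−0.22) and neutrophil score (−0.031), for MARCO with the monocyte score (−0.047), for CD68 with the platelet score (−0.15), for OLR1 with the neutrophil score (−0.16) and on the high side (−0.22), for SCARB1 on the high side (−0.028), and for SCARB2 on the low side (0.0011). Between females and males they turned for MERTK in limma-voom (0.024) and CD163 with age (−0.068), and for sex by group for SCARB1 with upper quartile normalization (−0.018) and limma-voom (−0.044). Depth limits AXL, MERTK, TYRO3, MSR1 and OLR1, with medians of 5 to 30 counts per dog.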
